A study of Rattus norvegicus with 6 samples.

Results

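The mitochondrial ribosome of the rat vestibular epithelium was followed through the genes of its proteins. Members were the protein-coding rows of the gene table whose symbol starts with Mrps or Mrpl followed by a number, and the rule found 75 genes among 32883 rows, of which 22250 are protein-coding. The rule uses symbols alone and no measured value. The libraries came from the vestibular epithelium, which contains the mechanosensory hair cells (HCs) of balance, of 6 Long-Evans rats, with the utricles and cristae of each animal pooled into 1 library. The 3 Control rats were injected with PBS, and the 3 STREP rats with streptomycin sulphate under the skin once a day at 500 mg/kg (as free base). Treatment began on postnatal day 21 and lasted 6 weeks in both groups. Replicates 1 and 2 of each group were males and replicate 3 a female, and all libraries carry the same batch label. The titles of STREP replicates 1 and 2 share a code number that the labels do not explain. Total counts ran from 29333584 to 59906048, and every STREP library was shallower than every Control library. Of 12 HC markers looked for, 11 have a row in the table and all 11 were detected. Of these 2 were called lower and 1 higher in STREP animals, and their summed normalised counts (counts divided by a library's size factor) were 106954 to 115620 in Control and 86753 to 104103 in STREP animals. In whole tissue, fewer cells of a type and less RNA per cell cannot be told apart.

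Mitochondria translate the few proteins that their own genome encodes, all of them parts of the respiratory chain or of ATP synthase. They do so on a ribosome whose rRNAs come from the mitochondrial genome and whose proteins are encoded in the nucleus, made in the cytosol and imported. Many of these proteins descend from bacterial ribosomal proteins, and others are found only in mitochondria. Streptomycin is an aminoglycoside, a class of antibiotics that bind the small subunit of the bacterial ribosome at its decoding centre and impair the accuracy of translation, which makes the mitochondrial ribosome a candidate target in mammalian cells. The single comparison of the design, STREP against Control, asks here whether the RNA level of these genes differed after streptomycin.

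Members are scattered over the nuclear genome, and their promoters are shown first, as a description of the genes apart from their counts. RefSeq (build GRCr8) gave a promoter window, 250 bases before to 50 after the transcription start, for 59 of the 75 members. Matches of short letter strings were counted on both strands, and the 5 strings given here were kept, after their shares were seen, out of a longer set tried on the same windows. The core recognised by NRF1, a factor known for activating nuclear genes of mitochondrial function, was searched with its middle base left free (the capitals in the first set of windows below show the forms found), and was present in 7 member windows (11.9%) and in 6.04% of the windows of 19005 protein-coding genes. CCGGAAG, a core of the ETS family to which the GABP factor belongs, was present in 19 (32.2%) against 11.2%. AAGATGGC, a core of YY1, was present in 15 (25.4%) against 3.88%. At least 1 of these strings was found in 31 of the 59 windows (52.5%) and in 18.7% of all windows, and no ETS match overlapped a YY1 match. TATAAA was as common among members (8 windows, 13.6%) as among all genes (13.1%), and TGACGTCA, the cAMP response element, was present in 1 (1.69%) against 2.22%. Shares were not adjusted for base composition, and a match of letters is not a bound site.

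The following windows, shown because they hold the NRF1 letters (in capitals), are on the sense strand and end at or before the last base ahead of the start.
Mrpl17, chr1:169575720-169575779, minus strand: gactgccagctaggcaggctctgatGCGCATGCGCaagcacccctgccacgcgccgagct
Mrpl32, chr17:55260564-55260623, plus strand: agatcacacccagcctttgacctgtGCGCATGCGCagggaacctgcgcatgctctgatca
Mrpl44, chr9:88554893-88554952, plus strand: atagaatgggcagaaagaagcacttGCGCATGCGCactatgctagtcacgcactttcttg
Mrpl45, chr10:82804869-82804928, plus strand: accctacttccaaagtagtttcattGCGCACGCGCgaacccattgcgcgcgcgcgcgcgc
Mrpl57, chr15:36086346-36086405, plus strand: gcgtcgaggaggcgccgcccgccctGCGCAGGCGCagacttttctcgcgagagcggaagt
Mrps18b, chr20:2842961-2843005, plus strand: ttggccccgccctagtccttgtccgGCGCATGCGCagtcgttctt
Mrpl17, Mrpl32, Mrpl44 and Mrps18b carried the same 10 letters. The first base of the match lay 55 bases before the start in Mrpl17, 132 before it in Mrpl44 and 20 before it in Mrps18b.

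The ETS letters are shown in windows of Mrps31, Mrpl23 and Mrps18a, and in Mrps27, where the match is on the other strand and reads CTTCCGG.
Mrps31, chr16:76324128-76324184, minus strand: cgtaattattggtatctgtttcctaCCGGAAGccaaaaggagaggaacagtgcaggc
Mrpl23, chr1:207116838-207116894, plus strand: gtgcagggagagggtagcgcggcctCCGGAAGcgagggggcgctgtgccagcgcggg
Mrps18a, chr9:22367387-22367443, minus strand: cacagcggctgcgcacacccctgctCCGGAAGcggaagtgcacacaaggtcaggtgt
Mrps27, chr2:32474133-32474189, plus strand: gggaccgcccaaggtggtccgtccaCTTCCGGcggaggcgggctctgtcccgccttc
The YY1 letters mostly lay at or past the start, and only 3 of the 15 members had a match wholly before it. They contain ATG, the letters of a start codon, and are shown in 4 members in windows of 30 bases.
Mrps7, chr10:101342637-101342666, plus strand: tgatagcggccAAGATGGCtgcccccgcac
Mrpl42, chr7:32028485-32028514, minus strand: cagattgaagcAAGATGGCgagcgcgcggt
Mrps18a, chr9:22367362-22367391, minus strand: ggtgtgttcccAAGATGGCggccctcaggg
Mrpl46, chr1:142116988-142117017, minus strand: gggaagacggaAAGATGGCggcgcccatag
Whether the YY1 letters in these windows belong to a coding sequence was not examined. Among all members with a window, 16 (27.1%) had another gene starting within 1000 bases on the opposite strand and reading away from it, against 6.90% of all protein-coding genes. One such pair joins 2 members, Mrpl46 and Mrps11, whose starts lie 234 bases apart.

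Of the 75 members, 72 averaged 10 or more normalised counts and were tested, and 69 averaged 100 or more. Mrps21l, a gene like Mrps21 by its symbol, had 0 counts in every library, which allows up to 0.0501 to 0.102 CPM (counts scaled to library size), the level that 3 counts would give. Mrpl53 had 2 counts, all in STREP replicate 1, and Mrpl33 had 4, all in Control replicate 3, so no comparison was made for these 3 genes. Counts are not divided by gene length, so members were not ranked against each other by level. By count alone the highest were Mrpl17, Mrpl10 and Mrpl15, with means of 2922, 2408 and 2370.0 over the 6 libraries.

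None of the 72 tested members was called in the DESeq2 test, in which a call needed a fold change above 1.5 in either direction together with a p-value that stayed under 0.05 after Benjamini-Hochberg adjustment over all genes. Of all tested genes 3.24% were called, 1.37% lower and 1.87% higher. None passed the adjusted p-value without the fold threshold either, against 3.72% of all genes. At an unadjusted p-value under 0.05 there were 3 members, against 12.2% of all genes. Of these, 2 were lower (Mrps28 and Mrps15, with 5.56% of all genes lower) and 1 was higher (Mrpl3, with 6.65% higher). The edgeR quasi-likelihood test called 0 members (1.77% of all genes) and also had 3 at an unadjusted p-value under 0.05 (11.6%). The smallest adjusted p-value was that of Mrps28, 0.109 with DESeq2 and 0.203 with edgeR.

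Most intervals excluded a change of 1.5-fold. For 50 of the 72 members (69.4%) the whole 95% interval of the fold change lay within 1.5-fold in either direction. The same held for 40.7% of all genes averaging 10 or more. For members averaging 100 or more the share was 72.5%, against 43.9% of the 9549 genes whose means fell in their range. This share depends on how near 0 an estimate is as well as on the width of its interval. The median SE was 0.177 for these members and 0.213 for those genes. Among the 69 members averaging 100 or more, log2 fold changes ran from -0.45 to 0.33. The plot of fold changes with their intervals shows each of these members.

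**Figure D1:**
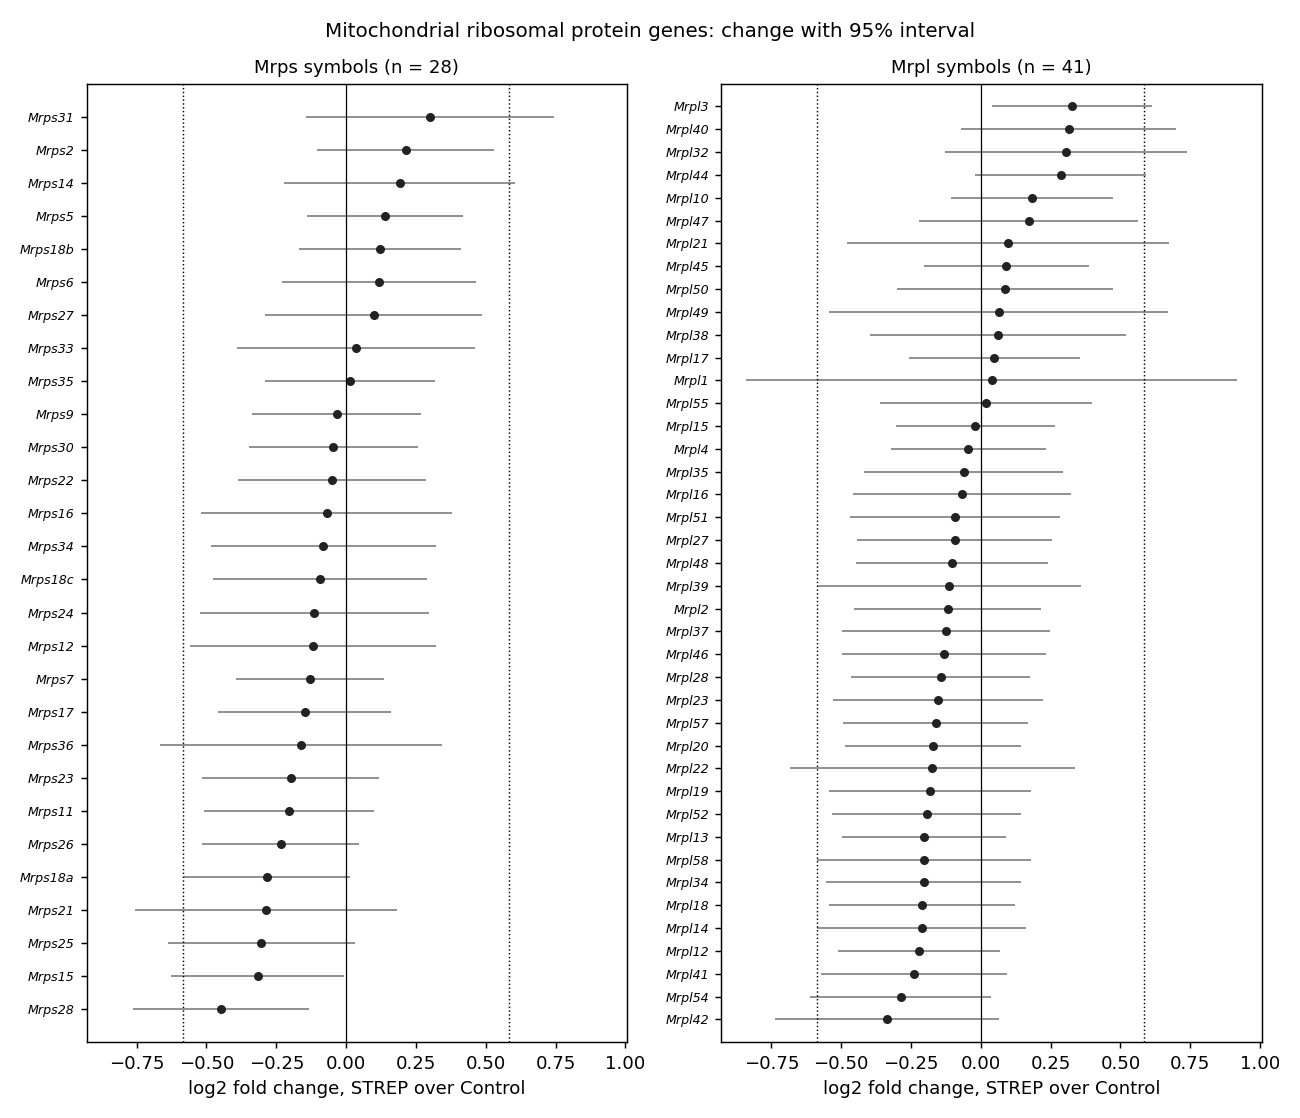
Log2 fold change of STREP over Control (x axis) for each of the 69 members averaging 100 or more normalised counts, with Mrps symbols on the left and Mrpl symbols on the right. Points are DESeq2 estimates (n = 3 animals a group), horizontal lines are 95% intervals and dotted lines mark a fold change of 1.5, and the points run from -0.45 (Mrps28) to 0.33 (Mrpl3), all between the dotted lines.

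Estimates below 0 were more numerous than estimates above it. The median log2 fold change of the 72 members was -0.11, with 49 (68.1%) below 0, beside a median of 0.0057 and 49.1% below 0 over the 14957 genes averaging 10 or more. The median was -0.093 over 29 genes with Mrps symbols and -0.11 over 43 with Mrpl symbols. Sorted by the subunit in which the protein sits, it was -0.087 for 26 genes of the small subunit and -0.11 for 45 of the large one (Mrps36, now known as a part of the 2-oxoglutarate dehydrogenase complex, was left out). Proteins of bacterial ancestry (42 genes) had a median of -0.12 and proteins particular to mitochondria (29 genes) one of -0.093, so no class of the ribosome stood far from the others.

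The lower median did not come from all STREP animals. Taking each member's difference from its Control mean on the log2(normalised count + 1) scale, the median over 69 members was 0.017, -0.082 and 0.063 in Control animals 1 to 3. In STREP animals 1 to 3 it was -0.17, 0.017 and -0.13. STREP replicate 2 lay inside the Control range, so the groups overlapped. STREP replicates 1 and 3 held the lowest of the 6 values for 27 and 24 members, while Control replicate 3 held the highest for 23 and STREP replicate 2 for 21. The median log2 fold change of the members was -0.018 with males alone, and it was -0.18 without STREP replicate 2.

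**Figure D2:**
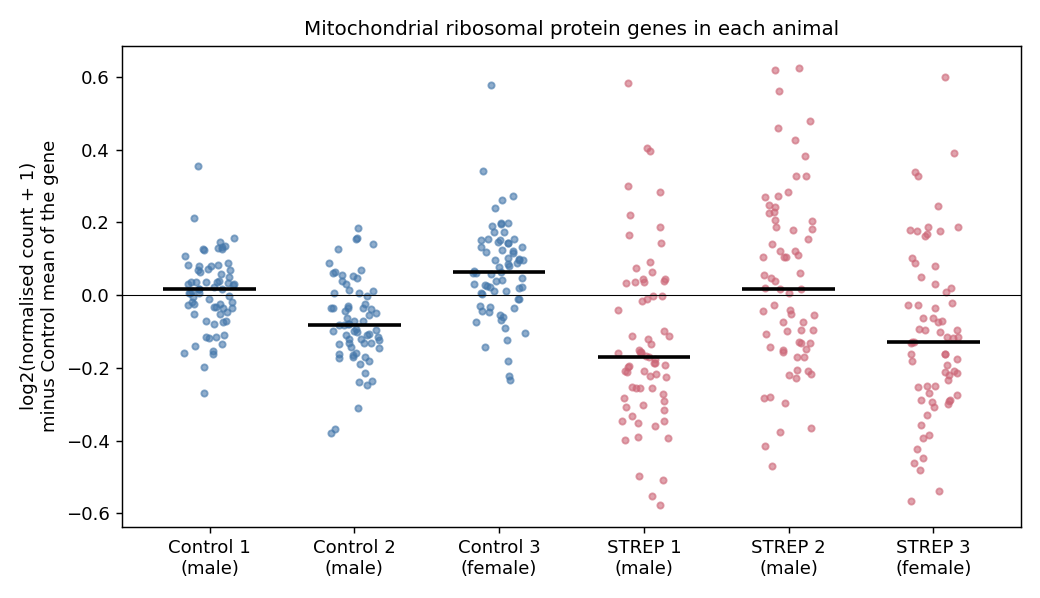
Difference of each of the 69 members from its own Control mean, in log2(normalised count + 1) (y axis), for each animal (x axis, with its sex). Each point is a gene and each black bar the median, which is -0.17 in STREP 1, 0.017 in STREP 2 and -0.13 in STREP 3, beside -0.082 to 0.063 in the Control animals.

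Members varied slightly more between STREP than between Control animals, with a median coefficient of variation of 10.9% and 8.37%, respectively. Their summed share of a library's counts was 0.187% to 0.218% in Control animals and 0.189%, 0.238% and 0.153% in the 3 STREP animals, so both the highest and the lowest share were in STREP animals. Markers of other cells were set beside these values. All 5 dark cell markers had estimates below 0 and their summed normalised counts were 49076 to 54074 in Control and 34247 to 41322 in STREP animals, without overlap. All 6 Schwann cell markers were also below 0, with overlapping sums of 221912 to 303817 and 114939 to 243992. The 10 supporting cell markers, 7 above 0 and 3 below, summed to 487020 to 612931 and 556892 to 972786, with overlap. Sums of neuron, melanocyte, macrophage, blood and endothelial markers overlapped between groups too. Of the 4 melanocyte markers 3 were below 0 and 1 above, with a median log2 fold change of -1.01. Among the markers of these other cells, 1 Schwann cell marker was called lower and 1 neuron marker higher, where 3.24% of all tested genes were called. None of these markers was at 0 throughout, and their part in the members' values was not tested.

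In 14 members the 3 STREP values did not overlap the 3 Control values, 11 lower (8.63% of all tested genes did the same) and 3 higher (9.12%). With library totals as size factors the counts were 3 and 0, against 6.22% and 5.52% of all genes. The 6 members with the lowest and the 6 with the highest fold change among those averaging 100 or more are plotted by animal and described next. In 57 of the 72 members, many of them with estimates near 0, the log2 fold change moved by over 1.5 times or changed sign when some animal was left out.

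**Figure D3:**
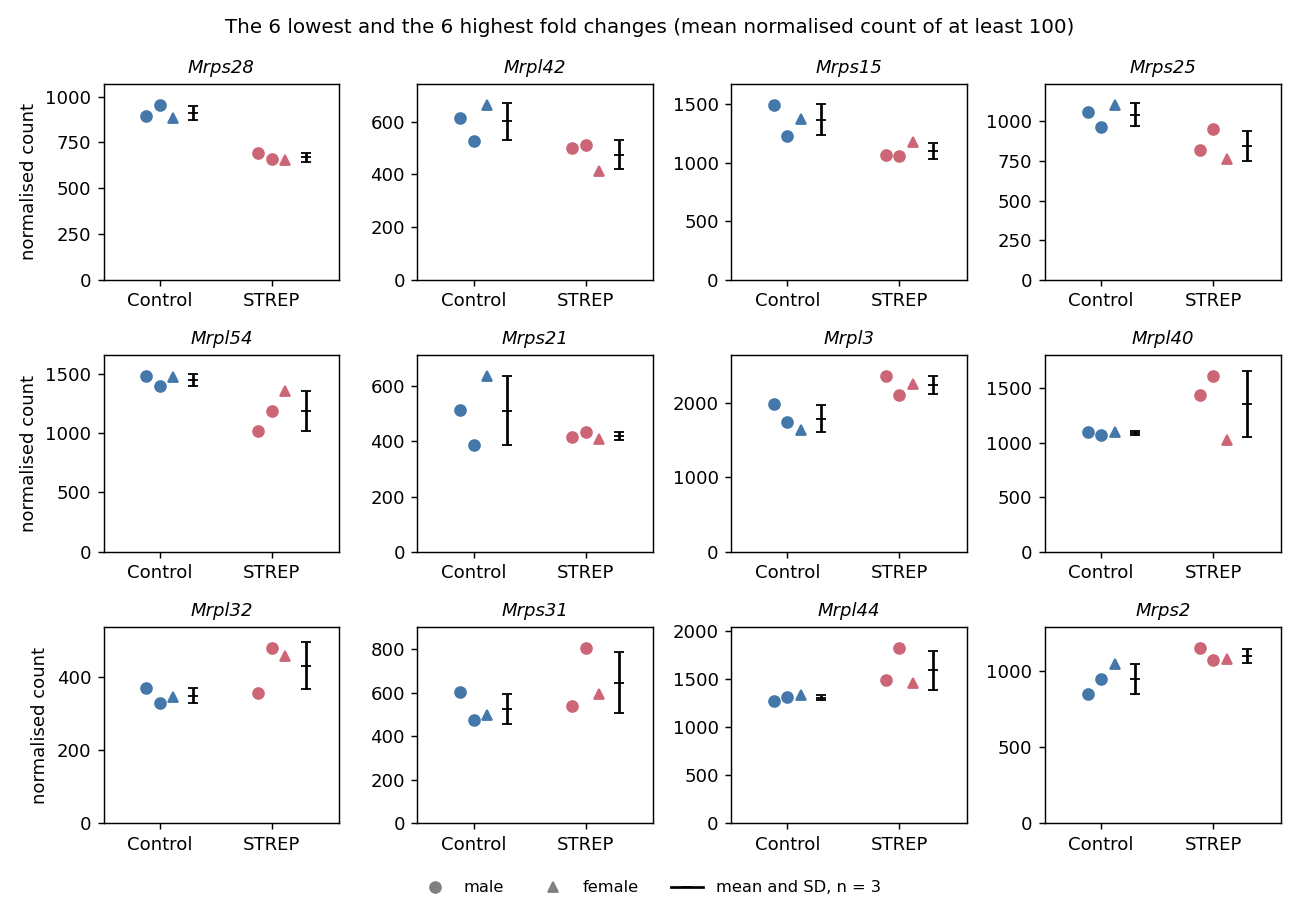
Normalised counts (y axis, from 0) in each animal for the 6 members with the lowest fold change (Mrps28 to Mrps21) and the 6 with the highest (Mrpl3 to Mrps2). Circles are males, triangles are females, and the black marks give the mean and SD of 3 animals, with Mrps28 at 883 to 956 in Control and 652 to 695 in STREP animals.

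Mrps28 (ENSRNOG00000032630), a small-subunit protein in the place of bacterial S1, had 895, 956 and 883 normalised counts in Control animals 1 to 3. The STREP animals, in the same order of replicates, had 695, 658 and 652. All 3 STREP values lay well below all Control values, with means of 911 ± 39.3 and 668 ± 23.3 (SD, n = 3). Its log2 fold change was -0.45 ± 0.16 (SE, DESeq2 unadjusted p = 0.00524, adjusted p = 0.109), a fold change of 0.733 with a 95% interval of 0.590 to 0.912. The estimate was nearly the same in males (-0.45) and in the female pair (-0.44), and it stayed between -0.48 and -0.41 when each animal was left out in turn. With library totals as size factors it was -0.46, but the DESeq2 adjusted p-value was 0.677. Under that choice 0 members had an unadjusted p-value under 0.05.

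Mrps15, the counterpart of bacterial S15, which binds the small-subunit rRNA early in assembly, had 1496, 1231 and 1373 in Control and 1062, 1057 and 1176 in STREP animals. The groups did not overlap, with a narrower gap between them than in Mrps28. Its log2 fold change was -0.32 ± 0.16 (DESeq2 adjusted p = 0.389). Mrps25, a mitochondria-specific small-subunit protein, had 1056, 965 and 1104 against 819, 949 and 763 (-0.30), and STREP replicate 2 came close to the lowest Control animal. Mrps21, the counterpart of bacterial S21, overlapped between groups, with 514, 386 and 636 in Control and 415, 435 and 409.9 in STREP animals (-0.29, and -0.10 without Control replicate 3).

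In the large subunit, Mrpl42 and Mrpl54, both mitochondria-specific proteins, had the lowest estimates. Mrpl42 went from 613, 525 and 664 in Control to 501, 513 and 411 in STREP animals (log2 fold change -0.34 ± 0.20, DESeq2 adjusted p = 0.554). Mrpl54 had 1479.6, 1395.0 and 1471 against 1017, 1191 and 1355 (-0.29 ± 0.16, DESeq2 adjusted p = 0.510). Neither overlapped between groups, and in both the highest STREP animal came close to the lowest Control animal.

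The highest estimates were in genes of both subunits. Mrpl3 (ENSRNOG00000012650), the counterpart of bacterial L3, a protein near the peptidyl transferase centre, had 1980.4, 1734 and 1631 in Control and 2353, 2109 and 2244 in STREP animals. Its groups did not overlap, and its log2 fold change was 0.33 ± 0.15 (DESeq2 unadjusted p = 0.0259, adjusted p = 0.290), a fold change of 1.25 with a 95% interval of 1.03 to 1.53. Mrpl44, a protein with an RNase III-like fold, was tight in Control at 1278, 1314 and 1336 and had 1492, 1827 and 1466 in STREP animals (0.29 ± 0.16, DESeq2 adjusted p = 0.471, and 0.17 without STREP replicate 2).

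Mrpl40, a mitochondria-specific protein, had 1102, 1074 and 1102 in Control animals and 1438, 1611 and 1023 in STREP animals. Both STREP males were above every Control animal and the STREP female was below them all, so the estimate of 0.31 ± 0.20 rested on 2 of 3 animals. Without STREP replicate 3 the estimate was 0.48, and Mrpl40 was then the single member past the adjusted p-value (DESeq2 adjusted p = 0.0495), still below the fold threshold. The test of a sex difference in the effect of streptomycin gave -0.59 (female minus male) for Mrpl40. This estimate rests on 1 female in each group, and no sex difference was detected for Mrpl40.

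Mrpl32, the counterpart of bacterial L32, which a protease of the inner membrane matures before it joins the ribosome, had 371, 331 and 347 in Control and 358, 480.5 and 458 in STREP animals (0.31). Mrps31, a mitochondria-specific small-subunit protein, had 605, 474 and 498 against 539, 807 and 595 (0.30). Both genes overlapped between groups, and in Mrps31 the estimate was carried by STREP replicate 2. Mrps2, the counterpart of bacterial S2, had 849, 948 and 1044 against 1149, 1068 and 1074 (0.21), without overlap but with the highest Control animal close to the lowest STREP animal.

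Members that form or adjoin the decoding part of the small subunit were described whatever their values, since aminoglycosides act there in bacteria. Mrps12 (ENSRNOG00000019949) is the counterpart of bacterial S12, the protein in which changes make bacteria resistant to streptomycin. It had 892, 633 and 965 normalised counts in Control and 656, 909 and 730.0 in STREP animals. The groups overlapped fully, with means of 830.2 and 765, and the log2 fold change was -0.12 ± 0.22 (DESeq2 adjusted p = 0.942), a fold change of 0.922 with a 95% interval of 0.680 to 1.25. The interval excluded a 1.5-fold difference in either direction, while the sign did not hold: the estimate was 0.036 with males alone and 0.0042 without Control replicate 3.

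Mrps5, the counterpart of bacterial S5, another protein in which changes alter translational accuracy, had 1534, 1623 and 1527 in Control and 1724, 1846 and 1581 in STREP animals (0.14 ± 0.14, DESeq2 adjusted p = 0.827). Mrps7 and Mrps11, counterparts of proteins of the bacterial head and platform, had log2 fold changes of -0.13 and -0.20. In Mrps11 the Control values of 992, 989 and 961 lay above the STREP values of 792, 885 and 877 without overlap (DESeq2 adjusted p = 0.707). Its divergent neighbour Mrpl46 overlapped between groups and had -0.13. Mrps14, the counterpart of bacterial S14, had 0.19, which came from STREP replicate 3 (2181 against 1422 and 1346 in the other STREP and 1324 to 1601 in the Control animals) and was -0.059 without it.

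The 3 genes descended from bacterial S18 allow a comparison within a family. Mrps18a, whose protein sits in the large subunit in spite of its symbol, had 1765, 1734 and 1838 in Control and 1354, 1371 and 1663 in STREP animals, without overlap (-0.28 ± 0.15, DESeq2 adjusted p = 0.457, and unadjusted p = 0.0371 with sex as a covariate). Mrps18b overlapped between groups, with 2183, 2067 and 2463 against 2301, 2691 and 2313, and its estimate had the other sign (0.12 ± 0.15, and 0.042 without STREP replicate 2). Mrps18c, the closest to the bacterial position, had 423, 488 and 467 against 413, 429 and 450.3 (-0.09 ± 0.19). Differences between the paralogs in their response were not tested.

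Mrpl12 and Mrpl10 form the stalk that recruits translation factors to the large subunit. Mrpl12 had 2186, 1947 and 2425 in Control and 1780.1, 1936 and 1904 in STREP animals, with Control replicate 2 just above the highest STREP animal (-0.22 ± 0.15, DESeq2 adjusted p = 0.620). Mrpl10 had 2467, 2180.5 and 2114 against 2310.0, 2559 and 2819.8 and the other sign (0.18 ± 0.15). Mrpl17 (0.05) and Mrpl15 (-0.02) overlapped fully between groups and changed sign when single animals were left out. Mrpl36, the counterpart of bacterial L36 and the lowest tested member by count, is named for its estimate of -1.02, chosen after its values were seen. Its SE was 1.47, since it had 17.8, 6.80 and 16.3 normalised counts in Control and 0, 1.08 and 19.4 in STREP animals, and no difference was detectable at this depth. Mrps10, the counterpart of bacterial S10 and also named after its values were seen, had the next lowest estimate, -0.65 with an SE of 0.54 (DESeq2 adjusted p = 0.750). It had 65.1, 45.1 and 56.8 normalised counts in Control and 39.9, 23.8 and 43.4 in STREP animals, a narrow separation without overlap at low counts.

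The effect of streptomycin was also compared between sexes, with a single female in each group, so that this test borrows its spread from the males. None of the 69 members tested had an adjusted p-value under 0.05 (0.259% of all genes did) and 1, Mrpl51, had an unadjusted one under 0.05 (5.54% of all genes) and is named for that reason. The estimate for Mrpl51 was 0.76 (female minus male, DESeq2 adjusted p = 0.871), with 1402, 1476 and 1129 in Control and 1176, 1081 and 1503 in STREP animals. With sex as a covariate, 0 members were called (3.44% of all genes) and 4 had an unadjusted p-value under 0.05, Mrps18a joining the other 3.

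The ribosome also needs subunits with other symbols, assembly factors, translation factors and the machinery that expresses mitochondrial DNA. In 6 lists of such genes, 78 genes were measured and 1 was called, against 3.24% of all tested genes. The 5 subunits with other symbols ran from -0.07 (Aurkaip1) to 0.18 (Chchd1), and the 26 assembly factors from -0.31 (Mettl15, a methyltransferase of the small-subunit rRNA) to 0.36 (Mpv17l2, which acts in large-subunit assembly). The 16 translation factors ran from -0.36 (Gfm1, the elongation factor) to 0.25 (Gfm2, the recycling factor). Genes for expression of mitochondrial DNA (10) ran from -0.34 (Polrmt, the mitochondrial RNA polymerase) to 0.35 (Polg2, a subunit of the DNA polymerase). Among the 10 regulators of mitochondrial biogenesis, 9 had estimates above 0 and 1 below, where 49.1% of all genes averaging 10 or more were below 0. None was called, and they ran from -0.37 (Ppargc1a, a coactivator of mitochondrial biogenesis) to 0.38 (Gabpb2, a GABP subunit). Several of these extremes shrank without a single animal, Gfm2 to 0.046 without Control replicate 3, Mettl15 to -0.10 without Control replicate 1, and Polg2 and Gabpb2 to 0.13 and 0.19 without STREP replicate 2. Nrf1, Gabpa and Yy1, factors whose letters were searched, were named for that reason after their values were seen. All were higher in STREP animals without overlap, as were 9.12% of all tested genes, and none was called. Gabpb1, a GABP subunit of the same list, overlapped between groups (0.0050, DESeq2 adjusted p = 0.998). Nrf1 had 1907, 1892 and 1744 in Control and 2030.4, 2068 and 2233 in STREP animals (0.19 ± 0.13, DESeq2 adjusted p = 0.666). Gabpa, the DNA-binding subunit of GABP, had 1005.9, 997 and 888 against 1057, 1151 and 1266 (0.26 ± 0.16, DESeq2 adjusted p = 0.559). Yy1 had 535, 399.5 and 554 against 555, 556 and 568 (0.17 ± 0.21), with the groups barely apart.

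The called gene was Hspa9 (ENSRNOG00000019525), the mitochondrial Hsp70 that pulls imported proteins into the matrix. It rose from 8112, 8254 and 7899 normalised counts in Control to 14280.5, 11229.7 and 13874 in STREP animals, with no overlap. Its log2 fold change was 0.70 ± 0.14 (SE, n = 3, DESeq2 adjusted p = 3.64e-05). The other 10 chaperones and proteases of its list ran from -0.09 to 0.10, and none was called. The call of Hspa9 was lost with edgeR when no count filter was used, at a log2 fold change of 0.69.

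The 2 rows annotated as mitochondrial rRNA, which the table does not name further, had estimates of 0.69 ± 0.54 (AY172581.9) and 0.47 ± 0.27 (AY172581.24), and neither was called (DESeq2 adjusted p = 0.713 and 0.506). AY172581.24 had 810851, 1018990.0 and 1143680.0 normalised counts in Control and 1200160.0, 826259 and 2089770.0 in STREP animals. STREP replicate 3 was the highest by far and STREP replicate 2 lay inside the Control range. The rRNA rows together took 2.24% to 2.77% of the counts in Control and 3.13%, 2.45% and 4.23% in STREP animals. These libraries were primed on poly(A) tails, so rRNA counts need not follow the amount of rRNA. Without STREP replicate 3 the estimates were 0.16 (AY172581.9) and 0.033 (AY172581.24). With sex as a covariate AY172581.9 passed both thresholds, at 0.61.

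The mRNAs of the mitochondrial genome, nuclear genes of oxidative phosphorylation and cytosolic ribosomal protein genes were set beside the members. Of all genes averaging 10 or more, 49.1% were below 0, and 3.24% of all tested genes were called. The 13 mRNAs of the mitochondrial genome had a median log2 fold change of 0.026 and none was called. By animal, their median difference from the Control mean was 0.066, -0.63 and 0.64 in STREP replicates 1, 2 and 3. In the Control animals it was -0.35, 0.096 and 0.26. STREP replicates 2 and 3 lay on opposite sides of the Control range, so this median does not show that levels were unchanged. The whole interval of the fold change lay within 1.5-fold for 4 of the 13 mRNAs. Nuclear genes of oxidative phosphorylation had a median of -0.15 over 83 genes, with 75 below 0 and none called. Their median difference from the Control mean was -0.28, -0.22 and 0.046 in STREP replicates 1, 2 and 3, against -0.089, -0.055 and 0.13 in the Control animals. Cytosolic ribosomal protein genes had a median of 0.16 over 81 genes, with 74 above 0 and 1 called, Rpl9 (0.85, DESeq2 adjusted p = 0.0277), a family with many copies whose reads may be shared. For the cytosolic genes that difference was 0.60 in STREP replicate 3, and -0.098 and -0.18 in STREP replicates 1 and 2. In Control animals it was -0.21, -0.015 and 0.23, so the female was the highest animal of each group. The difference between these families was not tested.

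**Figure D4:**
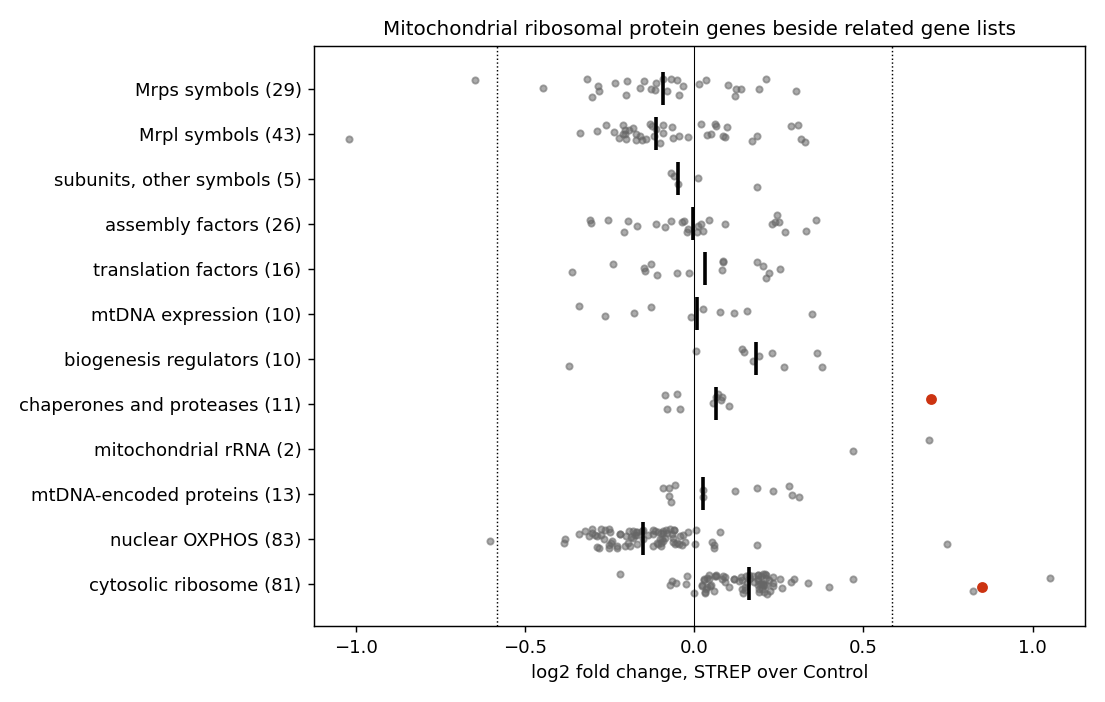
Log2 fold change of STREP over Control (x axis) for the members and for lists of related genes, counting genes that averaged 10 or more normalised counts (number in brackets). Each point is a gene, black bars are medians (none for the 2 rRNA rows), dotted lines mark a fold change of 1.5, and red points are the called genes, Hspa9 (0.70) among chaperones and Rpl9 (0.85) in the cytosolic ribosome, with none among the members.

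Fold changes were also set beside the promoter letters, as a description. The letters were chosen after values were seen, so this split is not a test of them. Members with the NRF1 letters had a median log2 fold change of 0.092 (7 genes, from -0.23 to 0.31, 2 of them below 0) and members without them one of -0.12 (50 genes), counting tested members that had a window. The medians were -0.15 with and -0.10 without the ETS letters (17 and 40 genes), and -0.10 with and -0.12 without the YY1 letters (15 and 42 genes). Among the members shown above, Mrpl32 (0.31), Mrpl44 (0.29), Mrps18b (0.12), Mrpl45 (0.09) and Mrpl17 (0.05) carried NRF1 letters and had estimates above 0. Mrpl57 carried them at -0.16, and so did Mrps26, whose window is not shown, at -0.23. None of these members was called. Of the divergent neighbours of members, Ncapd2, a condensin subunit that starts 50 bases from Mrpl51, was called at -1.01 (DESeq2 adjusted p = 0.0337), where Mrpl51 itself had -0.09.

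The median of the members was computed under each processing choice. It ranged from -0.11 to -0.091 under the other tests, filters and size factors with all animals, and from -0.18 to -0.064 when each animal was left out in turn. Over the same choices the median of all genes stayed between -0.0070 and 0.011.

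**Figure D5:**
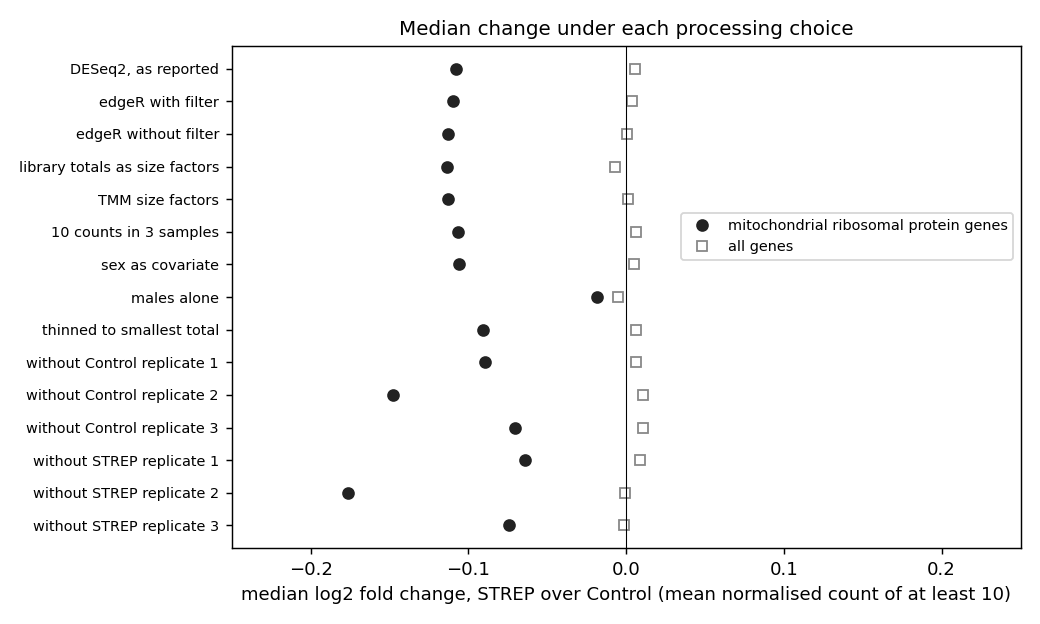
Median log2 fold change of STREP over Control (x axis) of the members (filled circles) and of all genes (open squares) that averaged 10 or more normalised counts, under each processing choice (rows). The members' median is below 0 in each row shown, from -0.18 without STREP replicate 2 to -0.018 with males alone, and that of all genes stays near 0.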

How the data were processed

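The authors mapped reads with STAR 2.5.3a to Rnor6.0, quantified genes with RSEM (1.3.0 in the submitters' processing notes, while the study's methods name another version) and deposited 1 table of expected counts without scaling between libraries. Libraries were made with SMART-seq2 chemistry, primed on poly(A) tails and not stranded. The values held 0 entries that were not whole, so rounding changed nothing. RSEM shares reads out between similar genes, which leaves genes with near-identical copies uncertain.

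Counts of all 32883 genes were fitted in R 4.3.3 with DESeq2 1.42.0 (size factors by the median of ratios, Wald test on the group term, independent filtering at 0.05). The tool and both thresholds are those of the study's methods, which name an older DESeq2 version and no further settings. Alternatives were edgeR 4.0.16, other size factors, filters and thresholds, sex as a covariate, males alone, thinned libraries and leaving out each animal. Intervals are the estimate ± 1.96 SE. Totals of 3 counts set the detection floor, and floors cover counting error only, since the reads carry no molecular identifiers and are not independent molecules. The fits were tested on simulated data.

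Groups came from the labels, and replicates were numbered in order of deposition. The members and gene lists were chosen with earlier results of these data known, and the grouping by subunit and ancestry and the promoter letters after values were seen. Named with values were members past the adjusted p-value, the 6 highest and 6 lowest fold changes among members averaging 100 or more normalised counts, 13 members picked by role, the 3 highest and 3 lowest by count, the mitochondrial rRNA rows, and the called or the highest and lowest gene of each related list. Outside this rule, and after their values were seen, Mrpl36, Mrps10, Mrpl45, Mrpl46, Mrpl51, Mrpl57, Mrps26, Rpl9, Ncapd2, Nrf1, Gabpa, Gabpb1 and Yy1 were named. Gene coordinates in Rnor6.0 and protein sequences were not used here. Promoter windows are RefSeq's in GRCr8, matched by symbol with 1 start per gene.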

Additional observations from a re-analysis of the deposited data

How the results depend on the processing

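The count of 0 members called held under every alternative run, including a fold threshold of 1.2. Members past the adjusted p-value numbered 0 to 1 when each animal was left out, the 1 being Mrpl40 without STREP replicate 3. The median log2 fold change of the members was -0.018 with males alone and ranged from -0.18 to -0.064 when each animal was left out. Members without overlap between groups (14) numbered 3 with library totals as size factors, 27 with males alone and 18 to 32 with an animal left out, where fewer values must be separated. The members' share was 19.4% with all animals (18.2% of all genes averaging 10 or more), 38.0% with males alone (40.6%), and 25.4% to 44.4% with an animal left out (27.0% to 29.7%), the highest without STREP replicate 2. Related genes called numbered 0 with edgeR without a count filter, where Hspa9 had 0.69, and AY172581.9 was called with sex as a covariate (0.61) and had 0.16 without STREP replicate 3. Of the members, 9 changed sign with males alone, all of them within 0.13 of 0 in the reported fit, and 2 to 9 with an animal left out. Among genes named by rule these were Mrps12 (0.036 with males alone, -0.28 to 0.0042 with an animal left out), Mrpl17 (-0.057 to 0.14), Mrpl15 (-0.088 to 0.068), Mrps14 (-0.059 to 0.32) and, outside the members, Aurkaip1 (-0.21 to 0.032); the cause was not tested. Among the values of named genes, 330 of those from the other settings and 215 of those with an animal left out had the same direction and call. No paired analysis was possible because the titles carry no replicate number shared between groups. With 3 animals a group and shallower STREP libraries, differences under the intervals given could not be seen.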
